A study of Rattus norvegicus with 19 samples.

Results

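Collagen chain genes encode the protein chains that assemble into collagen, the main structural protein of the extracellular matrix. Every gene symbol in the count tables made of Col, a number, the letter a and a second number was taken as a member, which gave 28 of 17455 genes. By the assembly that each chain forms, 10 are fibrillar, 3 belong to basement membranes, 2 to beaded filaments, 1 to a network collagen, 5 to the FACIT class (chains that sit on the surface of fibrils), 2 to the multiplexins, 3 to transmembrane collagens and 2 to none of these. Of the 28, 27 had enough reads to be tested, Col26a1 being the exception with at most 4 counts in a library. A gene table of the rat lists 44 symbols of this form, so the members are not the whole family; among those not analysed here are Col4a2, Col6a1, Col6a3 and Col12a1.

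In the heart, chains of collagen I and III form the fibrils of the interstitium, which are made mainly by fibroblasts and give the wall its tensile strength and stiffness. Collagen V sits inside these fibrils and starts their assembly, and collagen IV makes the sheet-like basement membranes around cardiomyocytes and capillaries. Collagens II, IX and XI belong to cartilage, and a gain of interstitial collagen, called fibrosis, is a known feature of stiff hearts.

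Rats of the Sprague-Dawley strain, 24 weeks old, ate a high-fat diet (60% of kilocalories from fat) and drank water with 0.5 g/L of L-NAME, which blocks the making of nitric oxide, as a model of heart failure with preserved ejection fraction (HFpEF). Hearts were taken at week 5 from control rats (control 5w) and from rats on diet and L-NAME (HFpEF), each as 3 libraries. The other hearts come from week 9, after a further 4 weeks in which HFpEF rats received by daily gavage the vehicle (untreated, 3 libraries), empagliflozin at 0.35 g/kg (EMPA, 2 libraries), pirfenidone at 0.3 g/kg (PFD, 2 libraries) or both drugs (EMPA + PFD, 3 libraries), with controls of the same week (control 9w, 3 libraries). The high-fat diet and L-NAME are listed for the untreated and all drug-treated groups of week 9 too. Control rats had normal chow and no L-NAME, as the paper states. Libraries are numbered within their group as in the labels, which give the strain of all as wild type and the sex of all as male, whereas the series' design text states equal numbers of males and females and the methods of the paper name left ventricles of males.

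The 19 libraries hold 7430539 to 13017754 counts each, with a median of 9951011. Levels are given as CPM, counts per 1000000 after TMM normalization, and 1 count in control 5w 1 equals 0.0942 CPM. Comparisons use edgeR's quasi-likelihood test in a single model of the 7 groups, with Benjamini-Hochberg adjustment over 12388 genes, and a gene is said to rise or fall where its adjusted p is under 0.05. Errors of fold changes are standard errors. DESeq2 was run as a second test and gave no adjusted p to Col2a1, Col9a1, Col9a2, Col9a3 and Col11a1 in any comparison, because it sets aside genes with a count far from its fit, so its counts cover 22 of the 27 tested chains. Where a group holds at most 3 counts of a gene in each of its libraries, counts and the adjusted p stand in place of a fitted fold change.

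Before the results, several libraries have to be set apart. Summed over the members, the chains reach 4592, 44633 and 36360 CPM in control 5w 1 to 3, 20074, 8366 and 12515 in HFpEF 1 to 3, 4748, 3862 and 5022 in control 9w, 3908, 7649 and 4421 in untreated, 4052 and 10286 in EMPA, 5285 and 4283 in PFD and 4301, 2550 and 3812 in EMPA + PFD. In control 5w 1 this sum is about that of the week 9 controls, whereas control 5w 2 and 3 hold the highest sums of the series, so the group of week 5 controls is split 1 against 2. Over 12283 genes, control 5w 2 and 3 are the most alike pair within a group, with a chi-square per degree of freedom of 6.8. It is 179 and 138 for control 5w 1 with each of them, and 14.5 to 168 for the pairs of other groups. The chains take 4.42% of the counts in control 5w 2 and 0.207% in EMPA + PFD 2, the highest and lowest shares. Col3a1 is the member with most counts in 17 of the libraries, Col4a1 in control 9w 2 and Col1a1 in EMPA 2.

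Markers of other tissues move with some of these libraries. Of the 7 markers of cartilage, bone and valve, 6 are in the tables (Acan is not), and their summed level is 14.3, 25.2 and 28.3 CPM in control 5w 1 to 3 and 163, 21.2 and 15.1 in HFpEF 1 to 3. At week 9 the sum is 21.7, 13.8 and 44.1 CPM in control 9w, 15.5, 46 and 14.3 in untreated, 10.8 and 318 in EMPA, 18 and 15.3 in PFD and 20.5, 14.7 and 19.6 in EMPA + PFD. HFpEF 1 and EMPA 2 stand far above the rest, with Ibsp, a protein of mineralizing bone, as the most abundant marker and none of the 6 at 0, while the other libraries have 1 to 3 markers at 0. The 5 atrial markers, with Nppa the most abundant and none at 0, sum to 5197, 188 and 23340 CPM in control 9w, to 48, 14870 and 484 in untreated and to 86.4, 382 and 153 in EMPA + PFD. Control 9w 1 and 3 and untreated 2 are high among the hearts of these groups, and leaving out these 3 was chosen after seeing the data, as was leaving out HFpEF 1 and EMPA 2 or control 5w 2 and 3. The first choice is written below as control 9w 2 alone and the last as control 5w 1 alone, since each leaves a control group of 1 library, which the model takes to vary like the other groups. A call made, kept or lost there rests on that library and says little of the group. At week 5 the atrial sum is 3284, 6124 and 4649 CPM in control 5w 1 to 3 and 2086, 272 and 1968 in HFpEF 1 to 3, and it is 698 and 5172 in EMPA and 2983 and 62.6 in PFD. Nppa makes up most of these, with 2583, 5794 and 4311 CPM in control 5w 1 to 3 and 5124 in EMPA 2. Sln had 0.188, 2.79 and 0.796 CPM in control 5w 1 to 3 and 5.95 in EMPA 2, against 156.5 in control 9w 1. Myl7 had 694, 293 and 307 CPM in control 5w 1 to 3 and 16.8 in EMPA 2, against 1083 in control 9w 1.

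All 8 cardiomyocyte markers, led by Myh6, are present in each library, with sums of 82900, 34280 and 38410 CPM in control 5w 1 to 3 and 11770, 24460 and 35160 in HFpEF 1 to 3. The week 9 sums are 36680, 43440 and 39870 CPM in control 9w, 72070, 20380 and 61290 in untreated, 47960 and 36460 in EMPA, 65940 and 75610 in PFD and 70860, 96950 and 79940 in EMPA + PFD. HFpEF 1 is lowest and EMPA + PFD 2 highest, and each EMPA + PFD library exceeds those of HFpEF and control 9w. The 8 fibroblast markers other than collagens, led by Gsn and never at 0, sum to 6565, 9181 and 8381 CPM in control 5w 1 to 3 and 9210, 13480 and 10160 in HFpEF 1 to 3. For week 9 they sum to 7177, 4942 and 6828 CPM in control 9w, 7596, 12300 and 6193 in untreated, 5556 and 4392 in EMPA, 5246 and 7516 in PFD and 9288, 3083 and 6185 in EMPA + PFD. The range of their sum is narrower than that of the collagen sums, and EMPA + PFD 2 is the lowest. Single markers differ: Gsn spans 1394 to 6238 CPM, Dcn 789.5 to 3478, Dpt 316 to 1937 and Pdgfra 81.1 to 438. Tcf21 spans 10.9 to 68.4 CPM, and wider are Lum (115.5 to 1709), Mfap5 (17.1 to 344) and Pi16 (40 to 795.5). From control 5w 1 to 3, Gsn had 3105, 1479 and 1680 CPM and Lum 325, 1709 and 1387. The 6 macrophage markers, led by Csf1r with none at 0, sum to 339, 610.5 and 534 CPM in control 5w 1 to 3 and 981, 311 and 631 in HFpEF 1 to 3. Week 9 sums are 176, 133 and 210.1 CPM in control 9w, 188, 433 and 214 in untreated, 199 and 144 in EMPA, 234 and 185 in PFD and 135, 128 and 212 in EMPA + PFD. Every week 9 library other than untreated 2 lies below each library of control 5w and HFpEF. Smooth muscle and pericyte markers, 8 of 8 present and led by Abcc9 with none at 0, sum to 1486, 1574 and 1481 CPM in control 5w 1 to 3 and 2334, 1432 and 1585 in HFpEF 1 to 3, and at week 9 to 1517, 1424 and 1369 CPM in control 9w, 1735, 1667 and 1958 in untreated, 1612 and 3502 in EMPA, 1410 and 1519 in PFD and 1501, 1405 and 1307 in EMPA + PFD. EMPA 2 and HFpEF 1 are the highest here as well. Mesothelium, with 2 of 4 markers in the tables and led by Wt1, sums to 55.2, 27.4 and 38.6 CPM in control 5w 1 to 3 and 60.1, 117 and 127 in HFpEF 1 to 3 and at week 9 to 139, 194 and 105 CPM in control 9w, 80.9, 97.3 and 110 in untreated, 129 and 77.5 in EMPA, 130.4 and 94.6 in PFD and 64.6, 83.9 and 54.5 in EMPA + PFD, with 1 marker at 0 in control 5w 1, untreated 3 and PFD 2. The 4 adipocyte markers, led by Adipoq, sum to 0 to 5.44 CPM. In tissue sequenced in bulk, fewer cells of a type and less RNA per cell cannot be told apart, and the part of any of these markers in the results was not tested.

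The Y-linked Eif2s3y is at 0 counts in HFpEF 1 and 3, in the 3 untreated libraries and in both PFD libraries, and at 613 to 1321 counts in the others, while the labels give a single sex. RT1-CE16, a histocompatibility gene that differs between rat haplotypes, has 0 to 3 counts in control 5w, HFpEF and EMPA and 308 to 922 in the remaining groups. Groups that are alike in both genes occur in PFD against untreated and in EMPA + PFD against control 9w. In HFpEF against control 5w RT1-CE16 is near 0 on both sides, and HFpEF 2 carries Eif2s3y like the control 5w libraries, so sex markers vary within HFpEF and follow the condition in part. In the remaining comparisons at least 1 of the genes separates whole groups, and that difference and the named condition cannot be told apart.

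At week 5, 5 of the 27 tested chains were higher in HFpEF than in control 5w and 0 lower, among 9.83% and 10.2% of all tested genes. The risers were Col27a1 and the cartilage chains Col2a1, Col9a1, Col9a3 and Col11a2. At an unadjusted p under 0.05, 8 chains were higher and 4 lower, beside 2199 and 2237 of all 12388 genes. DESeq2 called 2 higher (Col11a2 and Col27a1) and 2 lower, beside 1579 and 1645 of all genes. The lower ones were Col5a1, and Col4a4 with an adjusted p of 0.0226, beside 0.0573 by edgeR. The chains of collagens I and III were called by neither. The median log2 fold change of the tested chains was 0.02, as was that of all tested genes, but -0.62 without HFpEF 1, -0.29 without control 5w 1, and 0.24 and 0.14 without control 5w 2 or 3. Without HFpEF 1 no chain was called (0 of 27), and without control 5w 1 the calls became 0 higher and 4 lower (Col1a1, Col3a1, Col5a1 and Col8a1). Leaving out control 5w 2 or control 5w 3 alone, or fitting these 2 groups by themselves, also left 0 calls. By edgeR, 1218 of all genes were higher and 1260 lower, against 321 and 393 of 11871 in the fit of these 2 groups. The counts were 726 and 772 without control 5w 1, 750 and 1020 without control 5w 2 and 635 and 865 without control 5w 3. They were 942 and 779 without HFpEF 1 and 810 and 680 without HFpEF 2. With control 5w 1 alone, none of the 5 calls remained, the median was 1.69, and Col7a1, lowest of the series in that library, was called higher (1.93 ± 0.55, adjusted p = 0.0362).

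Between the control groups, control 9w against control 5w, the test called 8 of 27 lower, beside 17.2% of all genes, and 4 higher, beside 17.3%. The median of the tested chains was -0.80, against -0.04 for all genes, and of the opposite sign, 0.37, with control 5w 1 alone. The fallers were Col1a1, Col1a2, Col3a1, Col5a1, Col5a2, Col6a2, Col8a1 and Col14a1, and the risers Col4a3, Col7a1, Col13a1 and Col27a1. In that setting the call of Col7a1 was kept and none of the lower calls remained, a loss favoured by the choice, since the libraries left out hold the highest sums. With control 9w 2 alone, 4 of the 12 calls remained (Col27a1, Col5a1, Col6a2 and Col14a1) and Col4a4, lowest of the series in that library, was called lower. DESeq2 called 5 higher and 9 lower, beside 2429 and 2355 of all genes. Its calls are the 12 of edgeR, Col11a2 (higher) and Col16a1 (lower). By edgeR, 2148 of all genes were higher and 2128 lower. These became 1628 and 1365 without control 9w 1 and 1399 and 1187 without control 9w 2. Of the 4 higher chains, Col27a1 alone was left without any 1 of the control 5w libraries.

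In untreated hearts of week 9, no chain passed edgeR's test against control 9w: 0 of 27, beside 1.78% of all genes. An unadjusted p under 0.05 was held by 4 chains, beside 2259 of all 12388 genes. DESeq2 called 1 chain (Col4a3, lower), beside 274 genes higher and 550 lower. The median was 0.04, against 0.01 for all genes, but -0.30 without untreated 2, -0.11 without control 9w 2, and 0.24 without untreated 1 or untreated 3. Without untreated 2, edgeR also called Col4a3. The all-gene share moves with single libraries too: 73 genes higher and 147 lower became 534 and 481 without untreated 2, 1 and 7 without control 9w 2, 7 and 18 without control 9w 1, 6 and 10 without untreated 1 and 17 and 17 without untreated 3. Set against the HFpEF hearts of week 5, untreated hearts likewise had 0 of 27 called by edgeR, beside 0.226% of all genes. Here 13 chains had an unadjusted p under 0.05, each of them lower, beside 1246 of all 12388 genes higher and 1571 lower at that p. DESeq2 called 1 (Col6a2, lower), beside 392 genes higher and 568 lower. The median was -1.04 against -0.01. EdgeR called 17 of all genes higher and 11 lower. Without untreated 2 these became 1034 and 753, still with 0 chains. They were 96 and 305 without HFpEF 2 and 132 and 252 without control 5w 1. Without HFpEF 1 the 13 became 1 and the median -0.27, and the 13 became 5 without untreated 1 or untreated 3. Leaving out HFpEF 2 gave 2 calls by edgeR, Col2a1 and Col9a1, both lower. Without control 5w 1 edgeR called Col6a2, also lower.

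Many comparisons share a group, such as untreated or HFpEF, and results that share one are not independent. Under treatment with both drugs, 1 chain was lower than in untreated hearts, the transmembrane Col17a1, beside 5.52% of all genes, and 0 were higher, beside 6.6%. The median of the tested chains was -0.59, or -0.41 with genes near 0 set at the floor of 3 counts, against -0.03 for all genes. Here 3 chains had an unadjusted p under 0.05, beside 4055 of all 12388 genes. DESeq2 called 2 (Col17a1 and Col5a3, both lower), beside 1428 genes higher and 1096 lower. Without untreated 2, EMPA + PFD 2 or EMPA + PFD 3, or with these groups fitted by themselves, edgeR's count of chains was 0. The median was -0.11 without untreated 2, and the genes called of all tested, 817 higher and 684 lower, became 4 and 1 (of 11505) in the fit of these groups by themselves, 86 and 54 without untreated 2, 83 and 27 without EMPA + PFD 2, 216 and 97 without EMPA + PFD 3 and 252 and 165 without untreated 3. EMPA alone against untreated gave 0 of 27 by edgeR, beside 0.0404% of all genes. At an unadjusted p under 0.05, 7 chains were higher, beside 571 genes higher and 498 lower. DESeq2 called 1 chain (Col27a1, higher), beside 57 genes higher and 38 lower. The median of the chains was 0.49 against 0.01. Without EMPA 2, which leaves EMPA 1 alone, the median was -0.34, of the opposite sign, and the 7 became 1, while without EMPA 1 or untreated 2 the median was 0.92. Leaving out HFpEF 1 brought 1 call by edgeR, Col2a1. PFD alone gave 0 of 27 by edgeR, beside 0.00807% of all genes, and 0 by DESeq2, beside 4 genes higher and 1 lower. An unadjusted p under 0.05 was held by 1 chain, beside 646 of all genes. The median was -0.29 (-0.25 at the floor) against -0.02, and 0.05 without untreated 2. The test of an interaction of the drugs asked whether the effect of both differs from the sum of each alone. It called 0 of 27 by edgeR, beside 0.00807%, with 3 chains and 1131 of all genes at an unadjusted p under 0.05. DESeq2 called 0 chains, beside 34 genes higher and 20 lower, and the median was -0.68 against -0.01. That median was 0.18, of the opposite sign, without EMPA 2, -1.05 without EMPA 1 and -1.23 without untreated 2.

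Against EMPA alone, hearts on both drugs had 2 of 27 chains lower, Col2a1 and Col27a1, beside 4.42% of all genes, and 0 higher, beside 5.30%. The median was -1.19 against -0.05, and without EMPA 2 or without EMPA + PFD 2 the count was 0. Without EMPA 2 the median was -0.30, and the 656 higher and 547 lower of all genes became 5 and 2. They became 31 and 59 without EMPA 1, 95 and 28 without EMPA + PFD 2 and 184 and 51 without EMPA + PFD 3. The all-gene counts were 1164 and 838 without untreated 2 and 417 and 318 without control 9w 1. Without HFpEF 1 edgeR called 6 chains lower, with Col9a2, Col9a3, Col11a1 and Col11a2 added, and without HFpEF 2 it called 4 lower. DESeq2 called 1 higher (Col4a4) and 3 lower (Col1a1, Col11a2 and Col27a1), beside 1257 and 861 of all genes. Against the HFpEF hearts of week 5, 16 of 27 were lower with both drugs, beside 24.5% of all genes, and 1 higher, Col4a4, beside 22.3%. The median was -1.84 against -0.09, and without HFpEF 1 the calls numbered 4, all lower (Col4a1, Col5a3, Col8a1 and Col17a1), and the median was -0.94. Of all 12305 genes tested there, 2138 were higher and 2201 lower. Without EMPA + PFD 2 the chain calls numbered 7, of which 6 were lower, beside 2115 genes higher and 1879 lower. DESeq2 called 1 higher and 14 lower, among them Col1a2 and Col5a1, beside 3104 and 3116 of all genes. This comparison spans drugs and the weeks between them, and untreated hearts, which cover the same weeks, had 13 chains lower at an unadjusted p under 0.05 against the same HFpEF libraries, and 1 without HFpEF 1. At that p, 1571 of all 12388 genes were lower in untreated hearts, while 21 chains and 3610 genes were lower with both drugs. Against control 9w, 4 of 27 were lower with both drugs (Col4a1, Col4a3, Col6a4 and Col27a1), beside 16.6%, and 0 higher, beside 17.1%. The median was -0.59 (-0.49 at the floor) against -0.08, and without control 9w 2 the call of Col4a3 alone was left. Without EMPA + PFD 2 no call was left (0 of 27). The median was -0.35 without control 9w 3. With control 9w 2 alone none of the 4 calls remained, the median was -0.21, and Col4a4 was called higher (1.96 ± 0.49, adjusted p = 0.016). DESeq2 called 0 higher and 5 lower, the 4 of edgeR and Col17a1, beside 2399 and 2246 of all genes. By edgeR, 2122 of all genes were higher and 2059 lower. These became 1374 and 1439 without control 9w 1, 1360 and 1211 without control 9w 2 and 1386 and 1090 without EMPA + PFD 2.

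**Figure D1:**
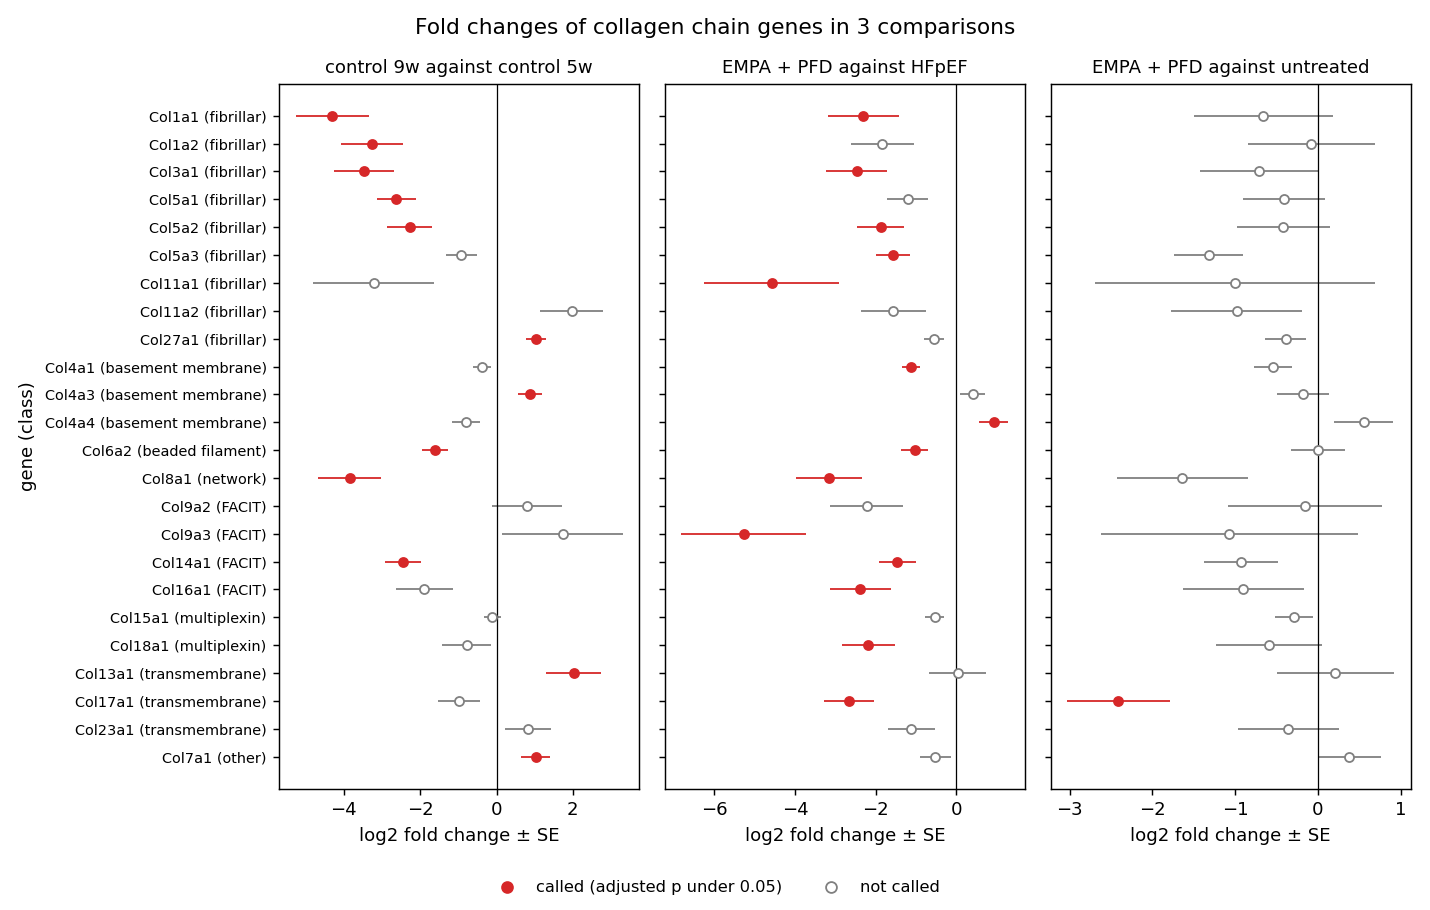
Log2 fold change with its standard error for 24 tested chains (Col2a1, Col6a4 and Col9a1, with groups at or under 3 counts, are left out) in 3 comparisons, by gene and class. Filled red points have an adjusted p under 0.05; interstitial chains such as Col1a1 (-4.30, -2.31 and -0.66 from left to right) lie left of 0 in each panel.

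Among the interstitial fibrillar chains, Col1a1 encodes the main chain of collagen I, the stiff fibril of scar and tendon. It stood at 496, 9900 and 7974 CPM in control 5w 1 to 3 and 2542, 839.6 and 1469 in HFpEF 1 to 3. At week 9 it stood at 324, 205 and 402 CPM in control 9w, 329.5, 893 and 331 in untreated, 316 and 2989 in EMPA, 519.9 and 364 in PFD and 411, 236 and 333 in EMPA + PFD. Control 5w 2 and 3 are highest, EMPA 2 and HFpEF 1 follow, and HFpEF lies wholly above control 9w and EMPA + PFD, while control 5w spans the range of the HFpEF libraries. Col1a1 fell from control 5w to control 9w (log2 fold change -4.30 ± 0.96, adjusted p = 0.00402), with -4.84 to -3.77 when each of the 6 libraries was left out in turn. With control 5w 1 alone the value was -0.68 (adjusted p = 0.633), and with control 9w 2 alone -4.90 (adjusted p = 0.0549). From HFpEF to EMPA + PFD it fell too (log2 fold change -2.31 ± 0.88, adjusted p = 0.0432), but the call was lost without any 1 of HFpEF 1, HFpEF 3 or the 3 EMPA + PFD libraries (adjusted p up to 0.137). In HFpEF against control 5w its log2 fold change was -1.92 ± 0.87 (adjusted p = 0.126), and in EMPA + PFD against untreated -0.66 ± 0.84 (adjusted p = 0.601).

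Col1a2, the other chain of collagen I, had 33.7, 474 and 373 CPM in control 5w 1 to 3 and 202, 60.3 and 103 in HFpEF 1 to 3. In the week 9 groups it had 32.6, 20.4 and 39 CPM in control 9w, 25.1, 57 and 26.1 in untreated, 21.3 and 134 in EMPA, 37.2 and 31.1 in PFD and 29, 23.9 and 49.3 in EMPA + PFD. Its order over the libraries is close to that of Col1a1 (Pearson r = 0.98 over 19 libraries, log2 CPM, as a description). Col1a2 fell between the controls (log2 fold change -3.26 ± 0.82, adjusted p = 0.00791; -3.77 to -2.73 over the left-out libraries), with -0.14 (adjusted p = 0.927) with control 5w 1 alone and -3.84 (adjusted p = 0.073) with control 9w 2 alone. In EMPA + PFD against HFpEF the groups do not overlap, and the adjusted p was 0.0649 by edgeR and 0.0279 by DESeq2.

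Col3a1, the chain of the finer and more extensible collagen III, had 1320, 25570 and 20230 CPM in control 5w 1 to 3 and 9270, 4081 and 6497 in HFpEF 1 to 3. At week 9 its levels were 1450, 1023 and 1766 CPM in control 9w, 1211, 3314 and 1371 in untreated, 1170 and 2653 in EMPA, 1950 and 1351 in PFD and 1479, 748 and 1365 in EMPA + PFD. The HFpEF libraries exceed every library of week 9, and control 5w 1 is within the range of week 9 while control 5w 2 and 3 exceed every other library. Col3a1 fell between the controls (log2 fold change -3.47 ± 0.79, adjusted p = 0.00442; -4.01 to -2.93 over the left-out libraries), yet with control 5w 1 alone the value was 0.09 (adjusted p = 0.94), of the opposite sign. With control 9w 2 alone it was -3.94 (adjusted p = 0.0523). It also fell from HFpEF to EMPA + PFD (log2 fold change -2.47 ± 0.75, adjusted p = 0.016; -2.72 to -2.14 over the left-out libraries), a call lost without HFpEF 1 or EMPA + PFD 2 (adjusted p up to 0.0686). For untreated against HFpEF the log2 fold change was -1.75 ± 0.74 (adjusted p = 0.181), and the 3 untreated libraries are below the 3 HFpEF libraries.

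**Figure D2:**
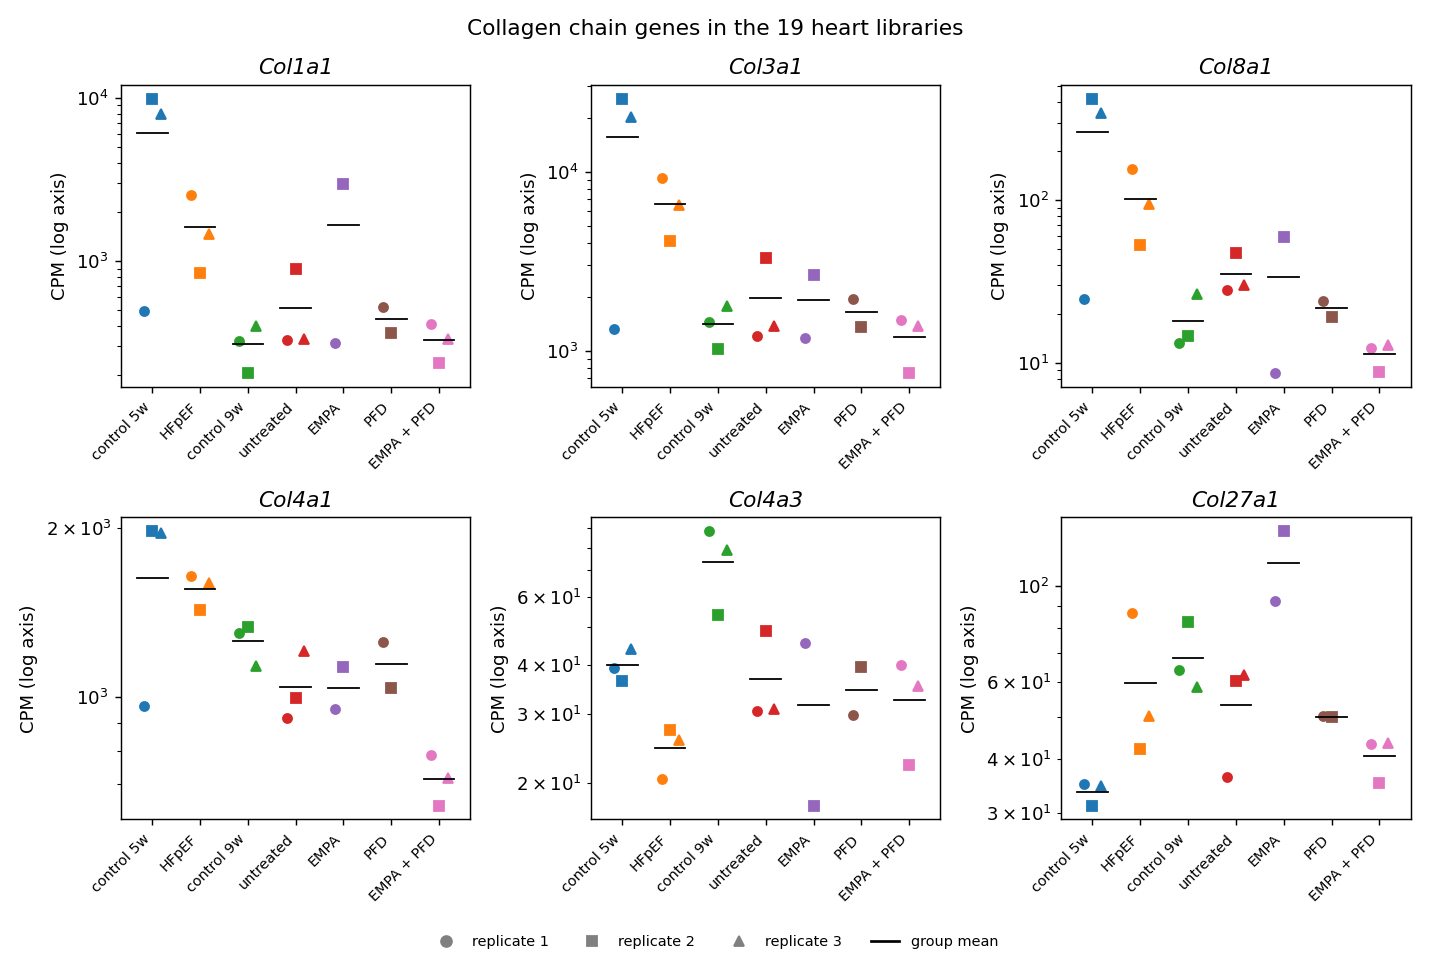
CPM (log axis) of 6 chains in each of the 19 libraries by group, with a bar at the group mean and the replicate number given by the marker. Control 5w 1 lies apart from control 5w 2 and 3 in Col1a1 (496 against 9900 and 7974 CPM), Col3a1 and Col8a1, and EMPA + PFD is lowest in Col4a1.

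Col5a1 and Col5a2 encode the chains of collagen V, which starts fibril assembly and limits fibril width. Col5a1 had 201, 1325 and 1069 CPM in control 5w 1 to 3 and 458, 192 and 307 in HFpEF 1 to 3. In later hearts it had 151, 102 and 169.5 CPM in control 9w, 145, 254 and 153 in untreated, 175 and 263 in EMPA, 186 and 155 in PFD and 154, 107 and 154 in EMPA + PFD. Control 5w lies wholly above control 9w, and Col5a1 fell between them (log2 fold change -2.62 ± 0.52, adjusted p = 0.00217; -3.08 to -2.17 over the left-out libraries). The call held with control 9w 2 alone (-3.08, adjusted p = 0.0273) and not with control 5w 1 alone (-0.52, adjusted p = 0.442). In HFpEF against control 5w Col5a1 had an adjusted p of 0.0549 by edgeR and 0.0178 by DESeq2, at a log2 fold change of -1.44 ± 0.50.

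Col5a2 followed the same libraries, with 203, 1557 and 1332 CPM in control 5w 1 to 3 and 974, 331 and 501 in HFpEF 1 to 3. Its week 9 levels were 229, 190.5 and 222 CPM in control 9w, 154, 333 and 174 in untreated, 203 and 418 in EMPA, 195 and 166 in PFD and 194, 118 and 183 in EMPA + PFD. Control 5w 1 is within the range of control 9w, and HFpEF 2 is close to untreated 2. It fell between the controls (log2 fold change -2.27 ± 0.59, adjusted p = 0.00918; -2.75 to -1.84 over the left-out libraries), with 0.07 (adjusted p = 0.948), the opposite sign, with control 5w 1 alone and -2.43 (adjusted p = 0.0896) with control 9w 2 alone. From HFpEF to EMPA + PFD it fell as well (log2 fold change -1.87 ± 0.58, adjusted p = 0.0173), a call lost without HFpEF 1 or EMPA + PFD 2 (log2 -2.16 to -1.33, adjusted p up to 0.0887).

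Col5a3, a further chain of collagen V, had 136, 285 and 256 CPM in control 5w 1 to 3 and 325, 162 and 207 in HFpEF 1 to 3. At week 9 it had 129, 103 and 126 CPM in control 9w, 143, 294 and 146 in untreated, 195 and 159.6 in EMPA, 154 and 151 in PFD and 136, 55 and 41.5 in EMPA + PFD. EMPA + PFD 2 and 3 are the lowest of the series, and the EMPA + PFD libraries lie below the untreated and the HFpEF libraries. Against HFpEF, Col5a3 was lower with both drugs (log2 fold change -1.58 ± 0.42, adjusted p = 0.0081) and stayed called without HFpEF 1 and EMPA 2 (log2 fold change -1.25 ± 0.45, adjusted p = 0.0475). It was picked out after its values were seen. Against untreated its adjusted p was 0.0513 by edgeR and 0.0162 by DESeq2 (log2 fold change -1.32 ± 0.42).

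Each of the chains of collagens II, IX and XI is highest in HFpEF 1 or EMPA 2. Col2a1, the chain of the cartilage fibril collagen II, had 1, 2 and 0 counts in control 5w 1 to 3 and 15993, 1 and 20 in HFpEF 1 to 3. In the week 9 groups it had 3, 0 and 2 counts in control 9w, 0, 5 and 2 in untreated, 5 and 6071 in EMPA, 1 and 0 in PFD and 1, 0 and 1 in EMPA + PFD. Outside HFpEF 1 and EMPA 2 no library has over 20 counts, and 5 have none. The test called Col2a1 higher in HFpEF than in control 5w (adjusted p = 0.0182), lower in EMPA + PFD than in EMPA (adjusted p = 0.0373) and lower in EMPA + PFD than in HFpEF (adjusted p = 0.00863). Each of these calls ends without the library that holds the counts, HFpEF 1 or EMPA 2. The first also ends without any 1 of the control 5w libraries, and the call against EMPA without any 1 of EMPA 1 or the EMPA + PFD libraries.

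Col9a1 is a chain of collagen IX, which coats cartilage fibrils, and had 2, 1 and 2 counts in control 5w 1 to 3 and 630, 6 and 4 in HFpEF 1 to 3. The week 9 libraries held 6, 5 and 5 counts in control 9w, 4, 5 and 3 in untreated, 3 and 138 in EMPA, 2 and 3 in PFD and 1, 3 and 2 in EMPA + PFD. It is high in the same libraries and at 1 to 6 counts in the others. The test called it higher in HFpEF than in control 5w (adjusted p = 0.017) and lower in EMPA + PFD than in HFpEF (adjusted p = 0.0104), and without HFpEF 1 both calls end, as does the first without any 1 of the control 5w libraries.

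Col9a3, a further chain of collagen IX, had 1.13, 1.01 and 1.03 CPM in control 5w 1 to 3 and 176, 2.29 and 3.13 in HFpEF 1 to 3. Its later levels were 3.95, 2.21 and 4.39 CPM in control 9w, 1.27, 6.82 and 1.48 in untreated, 1.86 and 64.9 in EMPA, 1.21 and 1.96 in PFD and 2.37, 1.20 and 1.15 in EMPA + PFD. After HFpEF 1 and EMPA 2, untreated 2 comes next. Col9a3 was higher in HFpEF than in control 5w (log2 fold change 5.83 ± 1.57, adjusted p = 0.02) and lower in EMPA + PFD than in HFpEF (log2 fold change -5.27 ± 1.54, adjusted p = 0.0129). Without HFpEF 1 the values were 1.35 (adjusted p = 0.395) and -0.79 (adjusted p = 0.567). The first call also ends without any 1 of the control 5w libraries, and the latter without EMPA + PFD 2 (-5.10, adjusted p = 0.052). Col9a2, the remaining chain of collagen IX, ranged from 1.51 CPM in control 5w 1 to 32.7 in EMPA 2, with a median of 2.95, and passed edgeR's test in 0 of the 12 comparisons, with an unadjusted p under 0.05 in 7, while DESeq2 gave it no adjusted p. EdgeR called it higher in HFpEF than in control 5w without any 1 of HFpEF 2, HFpEF 3, EMPA 1 or EMPA 2. Leaving out any 1 of the same libraries brought a call in EMPA + PFD against HFpEF, lower. Against EMPA it was called lower without HFpEF 1 or HFpEF 2.

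Col11a1 and Col11a2 are chains of collagen XI, the nucleating fibril of cartilage. Col11a1 had 0.377, 37.5 and 38.6 CPM in control 5w 1 to 3 and 151, 2.20 and 5.00 in HFpEF 1 to 3. For week 9 the levels were 2.03, 1.84 and 4.19 CPM in control 9w, 1.90, 6.09 and 5.16 in untreated, 3.20 and 107 in EMPA, 0.219 and 2.06 in PFD and 0.828, 4.07 and 1.78 in EMPA + PFD. Besides HFpEF 1 and EMPA 2, control 5w 2 and 3 are high, in contrast to Col2a1 and collagen IX. It was lower in EMPA + PFD than in HFpEF (log2 fold change -4.57 ± 1.67, adjusted p = 0.0361), but not without HFpEF 1 (-0.70, adjusted p = 0.727), nor without any 1 of the EMPA + PFD libraries (adjusted p up to 0.727 over the 6).

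Col11a2 had 11, 7.68 and 7.72 CPM in control 5w 1 to 3 and 117, 18.2 and 11.2 in HFpEF 1 to 3. Later hearts had 33.5, 35 and 34.6 CPM in control 9w, 17.2, 63.5 and 17.2 in untreated, 19.2 and 137 in EMPA, 12.9 and 22.5 in PFD and 14.4, 19.4 and 16.1 in EMPA + PFD. EMPA 2 and HFpEF 1 are highest, untreated 2 follows, and control 5w lies below both HFpEF and control 9w. Col11a2 was higher in HFpEF than in control 5w (log2 fold change 2.48 ± 0.82, adjusted p = 0.0465), with 0.75 (adjusted p = 0.474) without HFpEF 1, and the call ends without any 1 of the control 5w libraries too. Outside the groups compared, it ends without any 1 of the control 9w, PFD or EMPA + PFD libraries or untreated 3. All genes of at least 1 count, the fit of these groups by themselves and a replicate block end it as well. In control 9w against control 5w its adjusted p was 0.0752 by edgeR and 0.0255 by DESeq2 (log2 fold change 1.97 ± 0.82).

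**Figure D3:**
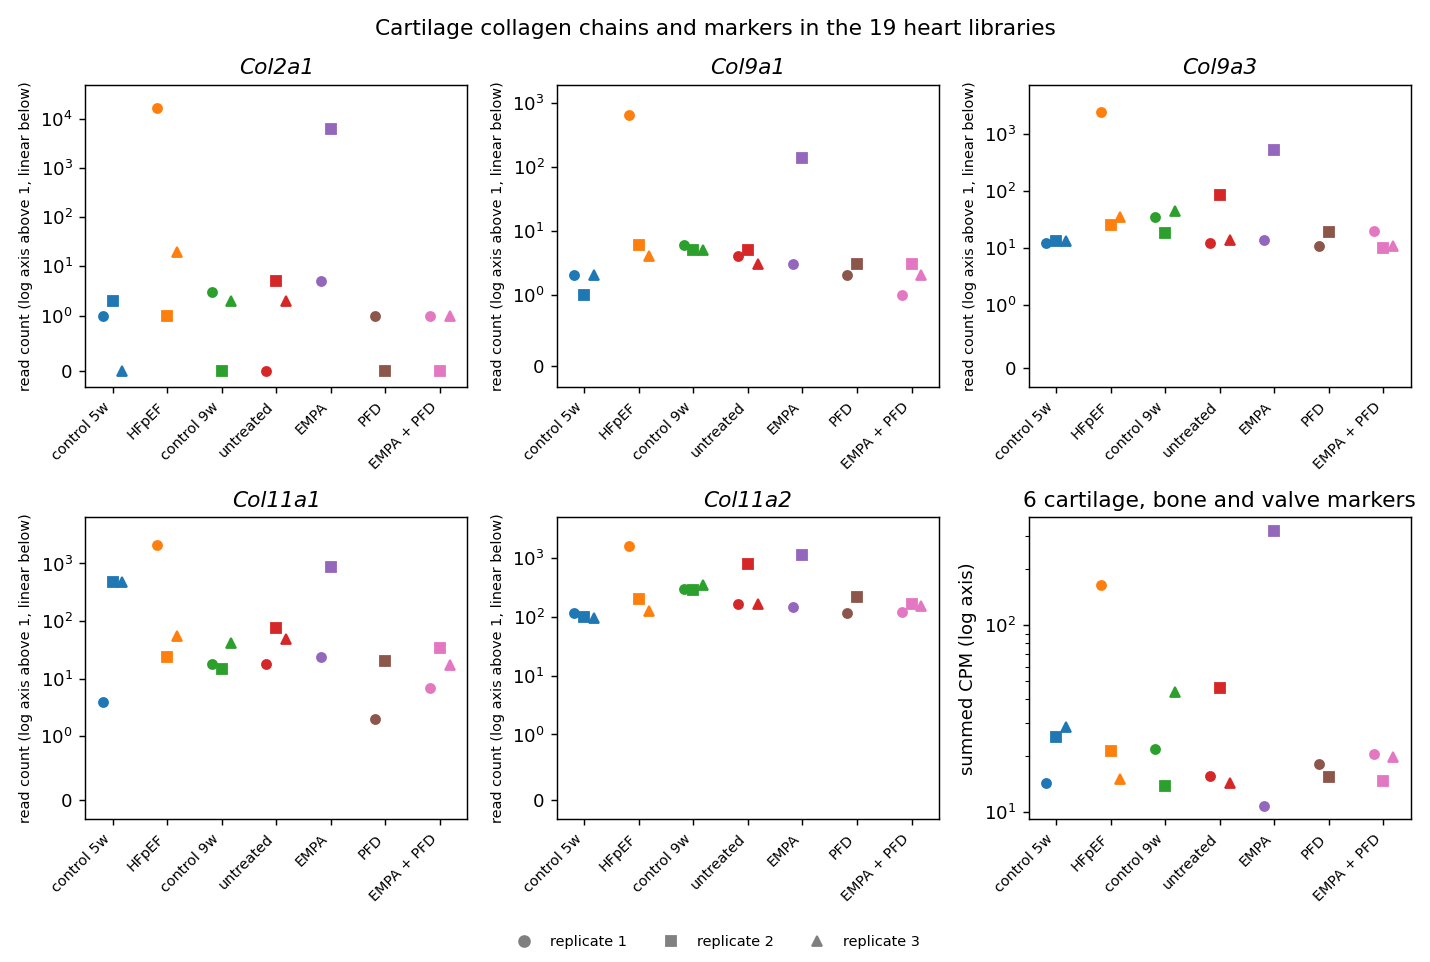
Read counts (log axis above 1, linear below) of 5 cartilage chains and the summed CPM (log axis) of 6 cartilage, bone and valve markers in each library. HFpEF 1 and EMPA 2 are highest in each panel, with 15993 and 6071 counts of Col2a1 and marker sums of 163 and 318 CPM.

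Col27a1, a fibrillar chain known from cartilage and developing tissues, is lowest in control 5w and highest in EMPA 2, as Col11a2 is. It had 34.9, 31.1 and 34.5 CPM in control 5w 1 to 3 and 86.9, 42 and 50.1 in HFpEF 1 to 3. In the later libraries it had 64, 82.7 and 58.6 CPM in control 9w, 36.3, 60.4 and 62.5 in untreated, 92.5 and 134 in EMPA, 50.1 and 49.9 in PFD and 43.2, 35.1 and 43.4 in EMPA + PFD. The control 5w libraries are the lowest of the series with little spread, EMPA holds the highest levels, and the EMPA libraries lie above those of untreated, PFD and EMPA + PFD. Col27a1 was higher in HFpEF than in control 5w (log2 fold change 0.83 ± 0.25, adjusted p = 0.0332), without HFpEF 1 0.46 (adjusted p = 0.174), and the call ends without any 1 of the control 5w libraries as well. It was higher in control 9w than in control 5w (log2 fold change 1.03 ± 0.26, adjusted p = 0.00742), a call kept with each of the 6 libraries left out (0.87 to 1.13) and with control 9w 2 alone (1.30 ± 0.35, adjusted p = 0.0207). With control 5w 1 alone it was 0.96 (adjusted p = 0.125).

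Under treatment, Col27a1 was lower with both drugs than with EMPA alone (log2 fold change -1.48 ± 0.28, adjusted p = 0.0131), where the groups do not overlap. Without EMPA 2 the value was -1.19 (adjusted p = 0.124) and without EMPA + PFD 2 -1.38 (adjusted p = 0.0558), each over 0.05. It was also lower with both drugs than in control 9w (log2 fold change -0.75 ± 0.26, adjusted p = 0.0344; -0.85 to -0.60 over the left-out libraries), a call that ends without any 1 of control 9w 1, control 9w 2 or the EMPA + PFD libraries (adjusted p up to 0.135). In EMPA against untreated the adjusted p was 0.218 by edgeR and 0.0412 by DESeq2 (log2 fold change 1.09 ± 0.28). The interaction of the drugs had a log2 value of -1.40 ± 0.40 (adjusted p = 0.353).

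Of the basement membrane chains, Col4a1 belongs to the collagen IV that underlies endothelium and surrounds cardiomyocytes. It had 966, 1975 and 1958 CPM in control 5w 1 to 3 and 1641, 1427 and 1598 in HFpEF 1 to 3. The week 9 groups had 1299, 1334 and 1136 CPM in control 9w, 917, 997 and 1206 in untreated, 950.3 and 1129 in EMPA, 1252 and 1037 in PFD and 788, 640.1 and 718 in EMPA + PFD. EMPA + PFD holds the 3 lowest levels of the series, below each library of the other groups, and control 5w 1 lies apart from control 5w 2 and 3 as it does for Col1a1 and Col3a1. Col4a1 was lower in EMPA + PFD than in HFpEF (log2 fold change -1.12 ± 0.23, adjusted p = 0.00194), a call kept with each of the 6 libraries left out (-1.18 to -1.03) and without HFpEF 1 and EMPA 2 (-1.08, adjusted p = 0.0109). It was lower than in control 9w too (log2 fold change -0.81 ± 0.23, adjusted p = 0.015; -0.88 to -0.73), though not without control 9w 2 (-0.77, adjusted p = 0.0511) or EMPA + PFD 2 (-0.73, adjusted p = 0.0643), nor with control 9w 2 alone (-0.90, adjusted p = 0.0718). Against untreated the log2 fold change was -0.54 ± 0.23 (adjusted p = 0.119).

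Beside Col4a1, the endothelial markers, all 6 of them present and led by Kdr with none at 0, sum to 2891, 3248 and 2361 CPM in control 9w, 2373, 2331 and 2718 in untreated and 1651, 1368 and 1363 in EMPA + PFD. These sums too are lower in the 3 EMPA + PFD libraries than in each library of the other groups at week 9. At week 5 they are 1466, 1138 and 1327 CPM in control 5w 1 to 3 and 1102, 2861 and 2106 in HFpEF 1 to 3, and at week 9 2406 and 1812 in EMPA and 2001 and 2101 in PFD. The part of endothelial cells in the level of Col4a1 was not tested.

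Col4a3 encodes a chain of the collagen IV of specialised basement membranes, best known from the kidney glomerulus. It had 39.5, 36.5 and 44.2 CPM in control 5w 1 to 3 and 20.4, 27.3 and 25.8 in HFpEF 1 to 3. At week 9 it had 88.2, 53.9 and 78.9 CPM in control 9w, 30.5, 49 and 31 in untreated, 45.7 and 17.5 in EMPA, 29.8 and 39.5 in PFD and 40.1, 22.2 and 35.4 in EMPA + PFD. Control 9w holds the 3 highest levels of the series, HFpEF lies below control 5w, and EMPA 2 is the lowest library. Col4a3 was higher in control 9w than in control 5w (log2 fold change 0.88 ± 0.31, adjusted p = 0.0392), a call that ends without any 1 of the control 5w libraries, control 9w 1 or control 9w 3 (log2 0.73 to 1.06, adjusted p up to 0.133). With control 9w 2 alone it was 0.43 (adjusted p = 0.469). It was lower in EMPA + PFD than in control 9w (log2 fold change -1.18 ± 0.31, adjusted p = 0.011), with -0.95 (adjusted p = 0.0598) without EMPA + PFD 2 and -0.72 (adjusted p = 0.22) with control 9w 2 alone. In untreated against control 9w the log2 fold change was -1.0 ± 0.31, with an adjusted p of 0.101 by edgeR and 0.0333 by DESeq2.

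Col4a4, the partner chain of Col4a3, had 5.09, 7.37 and 9.15 CPM in control 5w 1 to 3 and 3.01, 3.94 and 3.66 in HFpEF 1 to 3. In the week 9 groups it had 5.30, 1.72 and 5.28 CPM in control 9w, 5.38, 5.20 and 3.16 in untreated, 3.20 and 2.55 in EMPA, 5.04 and 4.01 in PFD and 7.57, 4.78 and 7.83 in EMPA + PFD. Where Col4a3 is highest, in control 9w, Col4a4 is not, and control 9w 2 holds its lowest level. Col4a4 was higher in EMPA + PFD than in HFpEF (log2 fold change 0.93 ± 0.36, adjusted p = 0.0483), while control 9w against control 5w gave -0.80 ± 0.36 (adjusted p = 0.097). With control 9w 2 alone, its lowest library, the latter was -2.06 ± 0.49 (adjusted p = 0.0129), a value that the choice of that library favours. The EMPA + PFD call, which was picked out after its values were seen, is lost without any 1 of the HFpEF libraries, EMPA + PFD 1 or EMPA + PFD 3. Outside the groups compared, it ends without any 1 of control 5w 2 or 3, control 9w 1, untreated 1 or 2, or the EMPA or PFD libraries. It is lost too with all genes of at least 1 count, a fold change of at least 2 or a replicate block.

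Both genes lie head to head on chromosome 9, with starts 412 bases apart in the GRCr8 build, and the stretches upstream of each share 88 bases. They are printed because the pair shares this stretch and yet differs in control 9w. Each run gives the 250 bases before the start in RefSeq's table, 5′ to 3′ on the gene's own strand, chr9:91323740-91323989 on the plus strand for Col4a3 and chr9:91323578-91323827 on the minus strand for Col4a4. Capitals mark GGGCGG, a motif searched on both strands, found in 12 of the 22 members with a promoter in the table (54.5%) and in 30.5% of 33469 promoters.
Col4a3: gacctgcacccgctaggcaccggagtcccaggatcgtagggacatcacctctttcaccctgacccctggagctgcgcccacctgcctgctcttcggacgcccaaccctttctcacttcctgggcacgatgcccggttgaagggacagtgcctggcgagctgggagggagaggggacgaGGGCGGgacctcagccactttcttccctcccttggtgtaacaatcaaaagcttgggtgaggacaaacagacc
Col4a4: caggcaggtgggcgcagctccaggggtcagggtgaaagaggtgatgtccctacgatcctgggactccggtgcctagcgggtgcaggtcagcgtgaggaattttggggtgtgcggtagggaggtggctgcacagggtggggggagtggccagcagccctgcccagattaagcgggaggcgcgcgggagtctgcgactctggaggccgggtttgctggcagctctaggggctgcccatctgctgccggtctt
Also searched on both strands were CCAAT, in 6 of the 22 (27.3%) and in 34.0% of all promoters, and TATAAA, in 3 (13.6%) and in 12.9%. A match describes the letters and no binding.

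Col6a2 is a chain of collagen VI, whose beaded filaments link cells to the surrounding matrix. It had 517, 1336 and 1195 CPM in control 5w 1 to 3 and 1053, 566 and 723 in HFpEF 1 to 3. The week 9 libraries held 365, 292 and 338 CPM in control 9w, 395, 429 and 319 in untreated, 465 and 488 in EMPA, 334 and 419.6 in PFD and 519, 241 and 386 in EMPA + PFD. Each library of week 5 exceeds each of control 9w, and HFpEF lies above untreated and EMPA + PFD. Col6a2 fell between the controls (log2 fold change -1.61 ± 0.34, adjusted p = 0.00274; -1.92 to -1.37 over the left-out libraries), also with control 9w 2 alone (-1.80 ± 0.56, adjusted p = 0.0386), though not with control 5w 1 alone (-0.65, adjusted p = 0.246). It fell from HFpEF to EMPA + PFD (log2 fold change -1.03 ± 0.33, adjusted p = 0.0202), a call lost without HFpEF 1 or without EMPA + PFD 2 or 3 (log2 -1.30 to -0.76, adjusted p up to 0.099). For untreated against HFpEF it had -1.04 ± 0.33 (adjusted p = 0.111 by edgeR and 0.0329 by DESeq2), and edgeR called it without control 5w 1.

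Col6a4, a rarer chain of the same class, had 8, 53 and 56 counts in control 5w 1 to 3 and 25, 10 and 12 in HFpEF 1 to 3. Later it had 12, 13 and 7 counts in control 9w, 1, 7 and 1 in untreated, 7 and 2 in EMPA, 10 and 3 in PFD and 1, 0 and 3 in EMPA + PFD. With at most 3 counts in each, the EMPA + PFD libraries lie below those of HFpEF and of control 9w, and the adjusted p was 0.02 and 0.033. The latter call ends without any 1 of control 9w 1, control 9w 2, EMPA + PFD 1 or EMPA + PFD 2, and the former without any 1 of HFpEF 1, EMPA + PFD 1 or EMPA + PFD 2. Counts this low carry little precision, and Col6a4 overlaps the abundant Rpl29 in the rat gene table, so some reads may belong to either gene.

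Col8a1 forms the network collagen of vessel walls and of tissue under remodelling. Its level was 24.7, 421 and 343 CPM in control 5w 1 to 3 and 155, 53.3 and 95.2 in HFpEF 1 to 3. At week 9 the level was 13.3, 14.6 and 26.6 CPM in control 9w, 28.3, 47.7 and 30.2 in untreated, 8.66 and 59.1 in EMPA, 24.2 and 19.2 in PFD and 12.3, 8.85 and 12.8 in EMPA + PFD. The 3 HFpEF libraries exceed those of control 9w, untreated and EMPA + PFD, and control 5w 1 is again apart from control 5w 2 and 3. Col8a1 fell between the controls (log2 fold change -3.85 ± 0.83, adjusted p = 0.0034; -4.38 to -3.33 over the left-out libraries), but not with control 5w 1 alone (-0.44, adjusted p = 0.723) or control 9w 2 alone (-4.16, adjusted p = 0.0601). From HFpEF to EMPA + PFD it fell (log2 fold change -3.16 ± 0.82, adjusted p = 0.00702) with each of the 6 libraries left out in turn (-3.46 to -2.71) and without HFpEF 1 and EMPA 2 (-2.71, adjusted p = 0.0179). Against untreated, EMPA + PFD gave -1.64 ± 0.79 (adjusted p = 0.163).

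Among the FACIT chains outside cartilage, Col14a1 binds the surface of interstitial fibrils and regulates their growth. It had 265, 918 and 749 CPM in control 5w 1 to 3 and 441, 197 and 401 in HFpEF 1 to 3. In later hearts it had 114, 75.3 and 162 CPM in control 9w, 179.6, 373 and 170.2 in untreated, 102 and 138 in EMPA, 182 and 179 in PFD and 149, 81.9 and 148 in EMPA + PFD. Control 5w lies above control 9w, the HFpEF libraries above EMPA + PFD, and untreated above control 9w. Col14a1 fell between the controls (log2 fold change -2.46 ± 0.47, adjusted p = 0.00174; -2.82 to -2.11 over the left-out libraries), also with control 9w 2 alone (-3.10 ± 0.71, adjusted p = 0.0105), and with control 5w 1 alone it was -1.18 (adjusted p = 0.134). It fell from HFpEF to EMPA + PFD (log2 fold change -1.46 ± 0.46, adjusted p = 0.0179), lost without HFpEF 1 or EMPA + PFD 2 (log2 -1.74 to -1.21, adjusted p up to 0.0816).

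Col16a1, a FACIT chain found near fibrils and cell attachments, had 33.3, 245 and 200.3 CPM in control 5w 1 to 3 and 348, 41.4 and 95 in HFpEF 1 to 3. For week 9 the levels were 49.9, 32.6 and 46.6 CPM in control 9w, 38.5, 97.8 and 36.9 in untreated, 40.6 and 119.5 in EMPA, 34.6 and 37.3 in PFD and 30.8, 28 and 34.3 in EMPA + PFD. HFpEF 1 is highest, and EMPA + PFD lies wholly below HFpEF. Col16a1 fell between these groups (log2 fold change -2.38 ± 0.75, adjusted p = 0.0187), but not without HFpEF 1 (-1.14, adjusted p = 0.186), EMPA + PFD 1 (-2.36, adjusted p = 0.0502) or EMPA + PFD 2 (-2.30, adjusted p = 0.0651).

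The multiplexins lie in basement membrane zones, and the end of the Col18a1 chain is the source of endostatin, an inhibitor of vessel growth. Col18a1 had 72.2, 271 and 275 CPM in control 5w 1 to 3 and 546, 76.1 and 160.3 in HFpEF 1 to 3. Its week 9 levels were 123, 92.2 and 146 CPM in control 9w, 53.4, 115 and 91.9 in untreated, 67.2 and 260.3 in EMPA, 74.6 and 56.9 in PFD and 52.6, 53.4 and 67.1 in EMPA + PFD. HFpEF 1 is highest, control 5w 2 and 3 and EMPA 2 come next, and EMPA + PFD lies below HFpEF. Col18a1 fell from HFpEF to EMPA + PFD (log2 fold change -2.18 ± 0.66, adjusted p = 0.0156), lost without HFpEF 1 (-1.03, adjusted p = 0.161) or EMPA + PFD 2 (-2.11, adjusted p = 0.0562). Col15a1, which anchors basement membranes in muscle and vessels, had 220.1, 205 and 247 CPM in control 5w 1 to 3 and 298, 219 and 229.8 in HFpEF 1 to 3. In the later libraries it had 240.4, 169.5 and 212 CPM in control 9w, 178, 223 and 226 in untreated, 148 and 194 in EMPA, 223 and 180 in PFD and 219, 103 and 191 in EMPA + PFD. It ranges from 103 CPM in EMPA + PFD 2 to 298 in HFpEF 1, groups overlap in most comparisons, and it passed the test in 0 of 12 comparisons by edgeR and by DESeq2, with an unadjusted p under 0.05 in 1. Leaving out EMPA + PFD 1 brought 1 call, lower in EMPA + PFD than in HFpEF.

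Of the transmembrane chains, Col17a1 encodes a cell-surface collagen of hemidesmosomes. Its level was 3.67, 9.31 and 7.72 CPM in control 5w 1 to 3 and 9.54, 5.59 and 5.54 in HFpEF 1 to 3. The week 9 levels were 3.16, 2.09 and 5.18 CPM in control 9w, 2.43, 11.7 and 3.27 in untreated, 2.13 and 3.40 in EMPA, 2.85 and 2.47 in PFD and 0.473, 1.44 and 1.36 in EMPA + PFD. The 3 EMPA + PFD libraries are the lowest of the series, at 4 to 13 counts, and untreated 2, which is high in atrial markers, is the highest. Col17a1 was lower in EMPA + PFD than in untreated (log2 fold change -2.41 ± 0.62, adjusted p = 0.0263). The call is lost without untreated 2 (-1.37, adjusted p = 0.17) and without EMPA + PFD 1 (-2.05, adjusted p = 0.0566), 2 (-2.63, adjusted p = 0.0947) or 3 (-2.59, adjusted p = 0.0736). From HFpEF to EMPA + PFD it fell (log2 fold change -2.65 ± 0.62, adjusted p = 0.00378) with each of the 6 libraries left out (-2.87 to -2.28) and without HFpEF 1 and EMPA 2 (-2.33, adjusted p = 0.0203).

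Col13a1, known from the junction of nerve and muscle, had 1.41, 2.33 and 3.74 CPM in control 5w 1 to 3 and 7.18, 4.31 and 3.31 in HFpEF 1 to 3. At week 9 it had 5.98, 2.83 and 21.7 CPM in control 9w, 3.59, 7.31 and 2.11 in untreated, 3.46 and 10.4 in EMPA, 1.31 and 4.01 in PFD and 7.69, 3.23 and 4.28 in EMPA + PFD. Control 9w 3, the library with the highest atrial sum, is far above the rest. Col13a1 was higher in control 9w than in control 5w (log2 fold change 2.02 ± 0.72, adjusted p = 0.0419), but 0.82 (adjusted p = 0.367) without control 9w 3 and 0.17 (adjusted p = 0.896) with control 9w 2 alone, and it was lost without any 1 of the control 5w libraries. Col23a1 ranged from 1 to 35 counts and passed the test in 0 of 12 comparisons by edgeR and by DESeq2, with an unadjusted p under 0.05 in 3 of them (HFpEF against control 5w, PFD against untreated and the interaction of the drugs).

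Col7a1 encodes the anchoring fibrils under epithelia. It had 3.77, 9.39 and 9.15 CPM in control 5w 1 to 3 and 22, 9.08 and 12.3 in HFpEF 1 to 3. The week 9 libraries held 15, 19.2 and 11.7 CPM in control 9w, 9.28, 5.76 and 8.43 in untreated, 13.1 and 16.3 in EMPA, 9.97 and 6.38 in PFD and 7.09, 10.3 and 12.9 in EMPA + PFD. Control 5w lies below control 9w, and control 5w 1 is lowest of the series. Col7a1 was higher in control 9w than in control 5w (log2 fold change 1.03 ± 0.38, adjusted p = 0.0471), a call that ends without any 1 of the control 5w libraries, control 9w 1 or control 9w 2 (log2 0.73 to 1.23, adjusted p up to 0.166). With control 5w 1 alone, its lowest library, the value was 2.01 ± 0.55 (adjusted p = 0.0362), which the choice of that library favours. Col26a1 had 0 counts in 15 libraries and at most 4, in control 5w 3, and was not tested.

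Whether the disease effect differed between the weeks, untreated against control 9w set against HFpEF against control 5w, was tested as an interaction. It called 1 of 27 chains higher, Col14a1, beside 9.76% of all genes, and 2 lower, Col7a1 and Col27a1, beside 10.2%. The median was -0.20, against -0.02 for all genes, but 0.59 without HFpEF 1 and 0.05 without control 5w 1, both of the opposite sign, -0.04 without untreated 1, -0.35 without control 5w 3 and -1.51 with control 5w 1 alone. DESeq2 called 2 higher and 2 lower, these 3 and Col5a1, beside 1544 and 1659 of all genes. By edgeR, 1209 of all genes were higher and 1264 lower. These became 614 and 707 without untreated 1 and 1961 and 1729 without untreated 2. Without control 9w 1 they were 741 and 853, and without control 9w 2 689 and 780. For Col7a1 the difference was -1.93 ± 0.54 (adjusted p = 0.0222), with log2 fold changes of 0.96 at week 5 and -0.97 at week 9. For Col27a1 it was -1.20 ± 0.36 (adjusted p = 0.0303), from 0.83 and -0.37. For Col14a1 it was 1.93 ± 0.64 (adjusted p = 0.045), from -0.89 and 1.04. Without control 9w 2 the count was 0, without HFpEF 1 it was 1 and without control 5w 1 it was 7. With control 5w 1 alone it was 2, Col7a1 (-2.90 ± 0.65, adjusted p = 0.0159) and Col4a1 (-0.95 ± 0.29, adjusted p = 0.0422), and with control 9w 2 alone 3, Col7a1, Col27a1 and Col4a4 (2.33 ± 0.59, adjusted p = 0.017), each from a control group of 1 library.

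Genes that make, cross-link, bind and degrade collagen were read as 6 lists beside the chains. From control 5w to control 9w 17.2% of all tested genes fell and 17.3% rose. Of 18 tested genes for folding and modification of the chains, 7 fell and 1 rose, among them Plod2, a lysyl hydroxylase (log2 fold change -1.96 ± 0.61, adjusted p = 0.0231), and Serpinh1, the collagen chaperone (log2 fold change -1.05 ± 0.27, adjusted p = 0.0095). Of 12 genes for propeptide removal and cross-linking, 6 fell and 0 rose, with Lox, the lysyl oxidase that starts cross-links (log2 fold change -3.66 ± 0.73, adjusted p = 0.00221), and Loxl1 (log2 fold change -3.08 ± 0.72, adjusted p = 0.00512) among them. Collagen receptors had 2 of 7 lower (Itga11 and Mrc2) and 0 higher, degradation 3 of 6 lower (Fap, Mmp2 and Mmp14) and 0 higher, fibril-associated proteins 4 of 11 lower (Bgn, Lum, Postn and Thbs2) and 0 higher, and TGF-beta inducers 0 of 4 either way by edgeR, with 1 at an unadjusted p under 0.05 and 1 lower by DESeq2. Postn, a matrix protein of remodelling hearts, had 45.6, 4079 and 3528 CPM in control 5w 1 to 3 and 1179, 128 and 879.6 in HFpEF 1 to 3, and in control 9w 46.4, 35.4 and 130 CPM. Control 5w 1 lies in the range of control 9w. Postn fell between the controls (log2 fold change -5.17 ± 1.39, adjusted p = 0.0112). In the other falls named, control 5w 2 and 3 are again the high libraries: control 5w 1 to 3 hold 9.70, 146 and 114 CPM of Lox against 5.87, 4.55 and 10.7 in control 9w, 70.2, 664 and 531 of Loxl1 against 42.9, 37.1 and 70, 39.6, 427 and 371 of Plod2 against 67.8, 68 and 79.1 and 555, 1358 and 1240 of Serpinh1 against 532, 498 and 493.

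In EMPA + PFD against HFpEF, beside 24.5% of all genes lower and 22.3% higher, the lists had, in the same order, 11 lower and 1 higher of 18 (the rise is Tmem38b), 5 lower of 12, 2 lower of 7, 4 lower of 6, 8 lower of 11 and 3 lower of 4, with 0 higher in the last 5 lists. Loxl1 fell (log2 fold change -3.60 ± 0.74, adjusted p = 0.00188), as did Serpinh1 (log2 fold change -1.24 ± 0.28, adjusted p = 0.00296) and Sparc, a collagen-binding protein (log2 fold change -1.50 ± 0.41, adjusted p = 0.00888). This comparison spans drugs and weeks. Untreated hearts against HFpEF had 0 genes of the lists called by edgeR, beside 0.226% of all genes. At an unadjusted p under 0.05, 6, 2, 2, 3, 5 and 2 were lower there, beside 1571 of all 12388 genes. The same order gave 0, 1, 1, 0, 0 and 0 higher, beside 1246. Serpinh1 had 398, 523 and 428 CPM in untreated and 914, 641 and 744 in HFpEF 1 to 3. Sparc had 2034, 2462 and 2608 in untreated and 4793, 4986 and 3882 in HFpEF. Tgfb1, the cytokine that induces collagen synthesis in fibroblasts, had 50.2, 73.4 and 80.1 CPM in control 5w 1 to 3 and 118, 76.9 and 98 in HFpEF 1 to 3. For week 9 the levels were 59.8, 69.1 and 54 CPM in control 9w, 53.9, 68.6 and 63.4 in untreated, 50.7 and 55.4 in EMPA, 56.1 and 53 in PFD and 37.5, 31.2 and 32 in EMPA + PFD. EMPA + PFD holds its 3 lowest levels and HFpEF 1 and 3 its highest. Tgfb1 fell from HFpEF to EMPA + PFD (log2 fold change -1.54 ± 0.18, adjusted p = 0.000176), and it was lower with both drugs than in untreated (log2 fold change -0.89 ± 0.18, adjusted p = 0.0127), in control 9w (log2 fold change -0.86 ± 0.18, adjusted p = 0.00327) and in EMPA (log2 fold change -0.66 ± 0.20, adjusted p = 0.0493).

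In EMPA + PFD against untreated, beside 5.52% of all genes lower and 6.6% higher, propeptide removal and cross-linking had 2 of 12 lower and receptors 1 of 7 lower, TGF-beta inducers 1 of 4 lower, and the other 3 lists 0 called by edgeR, with 1 gene at an unadjusted p under 0.05 in each of these and 1, 0 and 0 by DESeq2. With these groups fitted by themselves, 1 of all 11505 genes was called lower, so at most 1 of these lower calls can hold there. Loxl1 had 52.1, 220.5 and 84.9 CPM in untreated and 28.5, 22.6 and 22.2 in EMPA + PFD, with untreated 2 the highest and no overlap (log2 fold change -2.29 ± 0.70, adjusted p = 0.0469). Tll2, a propeptide-cleaving protease, had 18, 11 and 38 counts in untreated and 3, 0 and 2 in EMPA + PFD (adjusted p = 0.0266), and Itga1, a collagen-binding integrin, had 56.8, 54.1 and 55.4 CPM and 34.4, 43.4 and 42.9 CPM (log2 fold change -0.46 ± 0.14, adjusted p = 0.0445). Against untreated, EMPA alone called 0 genes of the 6 lists by edgeR (beside 0.0404% of all genes, 6 at an unadjusted p under 0.05, 2 by DESeq2) and PFD alone 0 (beside 0.00807%, 0 and 0). In EMPA + PFD against EMPA, where 4.42% of all genes were lower and 5.30% higher, the calls were Mmp13, Comp and Tgfb1, all lower. Of these Mmp13 holds 1100 counts in EMPA 2, 56 in HFpEF 1 and 0 to 2 elsewhere, and Comp 1834 counts in EMPA 2 and 5600 in HFpEF 1.

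In HFpEF against control 5w, beside 10.2% of all genes lower and 9.83% higher, folding and modification had 1 of 18 lower (P4ha3). Propeptide removal and cross-linking had 2 of 12 lower (Lox and Loxl4) and 1 higher (Tll1), and receptors 1 of 7 lower (Itga1). Degradation had 0 of 6 by edgeR (0 at an unadjusted p under 0.05 and 0 by DESeq2). Fibril-associated proteins had 2 of 11 higher (Comp and Fmod) and TGF-beta inducers 1 of 4 higher (Tgfb1). Whether these calls hold with a library left out was not tested. Loxl4 had 17.1, 17.7 and 15.7 CPM in control 5w and 8.11, 6.14 and 6.70 in HFpEF, without overlap (log2 fold change -1.27 ± 0.27, adjusted p = 0.00796). Tgfb1 was higher (log2 fold change 0.52 ± 0.18, adjusted p = 0.0495), though its lowest HFpEF library, at 76.9 CPM, is below control 5w 3. Comp and Fmod are matrix proteins of cartilage and tendon, and HFpEF 1 holds 402 and 119 CPM of them, against at most 29.4 and 18.9 in HFpEF 2 and 3.

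Over the 19 libraries, and outside the members, the genes whose log2 CPM followed Col1a1 most closely were Clec11a (Pearson r = 0.971), Bgn (0.968), C1qtnf3 (0.967), Aldh1l2 (0.967) and Antxr1 (0.965), out of 12361 searched. Bgn encodes biglycan, a proteoglycan bound to collagen fibrils. For Col4a1 they were Sparc (0.954), S100a11 (0.943), Grn (0.936), Rcn1 (0.928) and Fap (0.920). After group means were taken out, r was 0.973 for Bgn with Col1a1 and 0.935 for Sparc with Col4a1. Among the members, Col3a1, Col5a1, Col5a2 and Col8a1 correlated with Col1a1 at 0.95, 0.96, 0.96 and 0.94, and Col4a3, Col11a2 and Col27a1 at -0.30, -0.03 and -0.08. These values describe how the libraries vary together, which share depth and tissue content, and carry no p.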

How the data were processed

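RNA of rat heart tissue was sequenced as 19 libraries. The deposited files give raw counts for each gene symbol. The authors' tools were Trim Galore, FastQC, HISAT2 on rn6 and HTSeq (versions and strand setting not given). The study's notes also name DESeq2. The count files of the single samples were used, and the series' combined table, which holds the same numbers, was not used here. Libraries hold 7430539 to 13017754 counts, and 1 count in control 5w 1 is 0.0942 CPM, so values of genes near 3 counts are imprecise.

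Counts were analysed in R 4.3.3 with edgeR 4.0.16 (filterByExpr, TMM, quasi-likelihood F test, a single model of 7 groups), for 12388 of 17455 genes and 12 comparisons. Libraries were grouped by their labels. Alternatives were RLE normalization, all genes with at least 1 count, DESeq2 1.42.0, a fit on the groups compared, a fold change of at least 2, a replicate block and leaving out each library, and 3 choices of libraries made after seeing the data. The scripts were tested on simulated data.

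Members and lists were chosen with earlier results of these data known. Named for each library were the main interstitial, basement membrane and associated chains, and beside them every chain called in a comparison, at most the 12 with the largest change. Gene overlaps and promoters come from RefSeq tables of GRCr8, whereas the counts were made on rn6. Of the members, 14 overlap another gene there, 4 of them one in the count files, so reads of such genes may be misassigned.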

Additional observations from a re-analysis of the deposited data

Results flagged for a closer look

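Of the chains, 3 differed in the disease effect between the weeks by the test of the difference itself (untreated against control 9w, less HFpEF against control 5w). Col7a1 had a difference of -1.93 ± 0.54 (adjusted p = 0.0222), and leaving out 1 library at a time gave -2.17 to -1.49, with the call lost without HFpEF 1 or control 9w 2 (adjusted p up to 0.0603). Col14a1 had 1.93 ± 0.64 (adjusted p = 0.0450), with 1.47 to 2.30 over the left-out libraries, and the call was lost without any 1 of control 5w 2 and 3, HFpEF 2 and 3, control 9w 1 and 2 or untreated 1 and 2 (adjusted p up to 0.11). Col27a1 had -1.20 ± 0.36 (adjusted p = 0.0303), with -1.40 to -0.83, and lost its call without any 1 of control 5w 2 and 3, HFpEF 1, control 9w 1 and 2 or untreated 1 (adjusted p up to 0.0816). Without HFpEF 1 and EMPA 2 the values were -1.48 (adjusted p = 0.066), 2.15 (adjusted p = 0.0546) and -0.82 (adjusted p = 0.0624). In the same order they were -2.07 (adjusted p = 0.0466), 2.11 (adjusted p = 0.0724) and -1.58 (adjusted p = 0.0309) with control 9w 2 as the single control of week 9, and -2.90 (adjusted p = 0.0159), 0.67 (adjusted p = 0.48) and -1.13 (adjusted p = 0.116) with control 5w 1 as the single control of week 5. The groups of the contrast differ in sex and haplotype markers as well as in week, and the cause was not tested.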

How the results depend on the processing

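Counts of called chains that moved by over 1.5 times are given by setting, and the cause was not tested. DESeq2, which gave 22 of the 27 chains an adjusted p, called 1 in untreated against control 9w, 1 in untreated against HFpEF, 2 in EMPA + PFD against untreated, 1 in EMPA against untreated and 4 in EMPA + PFD against EMPA. A fit on the groups compared alone called 0 in HFpEF against control 5w, 0 in EMPA + PFD against untreated, 1 in EMPA + PFD against EMPA and 1 for the difference between weeks. A fold change of at least 2 left 2 in EMPA + PFD against control 9w. Settings chosen after seeing the data follow. Without HFpEF 1 and EMPA 2, 0 were called in HFpEF against control 5w, 0 in EMPA + PFD against EMPA, 4 in EMPA + PFD against HFpEF and 0 for the difference between weeks. Without control 9w 1, control 9w 3 and untreated 2, which leaves 1 library in control 9w, 5 were called in control 9w against control 5w, 0 in EMPA + PFD against untreated and 1 in EMPA + PFD against control 9w. Without control 5w 2 and 3, which leaves 1 library in control 5w, 1 was called in HFpEF against control 5w and 1 in control 9w against control 5w, and in the latter Col3a1 (0.09) and Col5a2 (0.07) changed sign.

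Leaving out 1 library at a time gave 0 to 6 calls in HFpEF against control 5w, 0 to 1 in untreated against control 9w, 9 to 14 in control 9w against control 5w, 0 to 2 in untreated against HFpEF, 0 to 3 in EMPA + PFD against untreated, 0 to 1 in EMPA against untreated, 0 to 0 in PFD against untreated, 0 to 6 in EMPA + PFD against EMPA, 4 to 20 in EMPA + PFD against HFpEF, 0 to 5 in EMPA + PFD against control 9w, 0 to 7 for the difference between weeks and 0 to 0 for the interaction of the drugs. Where a group is left with 1 library, that library is assumed to vary like the other groups. Of the 35 fold changes named by the rule, 35 kept their call under RLE normalization, 34 with all genes of at least 1 count, 32 under DESeq2, which gave no adjusted p to the other 3, and 24 in a fit on the groups compared. Fewer were kept in the settings chosen after seeing the data: 3 of 19 without HFpEF 1 and EMPA 2, 6 of 19 without control 9w 1, control 9w 3 and untreated 2, and 2 of 18 without control 5w 2 and 3, where 2 changed sign. Of 227 with a library left out, 146 kept the call and 81 kept the direction without it. Leaving out a library outside the groups compared also ended some calls. These include Col1a1 and Col4a4 in EMPA + PFD against HFpEF, Col11a2 in HFpEF against control 5w and Col7a1 in control 9w against control 5w.

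With a replicate block, the replicate number added to the model, 2 chains were called in HFpEF against control 5w, 1 in EMPA + PFD against EMPA and 1 for the difference between weeks, and 26 of the 35 fold changes kept their call. The numbers do not pair the samples: residuals of same-number libraries correlate at -0.05 on average (11 of 52 pairs over 0.1) and those of other libraries at 0.02 (44 of 102). Groups of 2 or 3 hearts limit each result, and a fold change of a chain with few counts is imprecise.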

Other observations

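The ratio of Col1a1 to Col3a1 in CPM, which describes the libraries and compares no levels between the genes, was 0.376, 0.387 and 0.394 in control 5w 1 to 3 and 1.13 in EMPA 2. In the other libraries it lay between 0.201 (control 9w 2) and 0.315 (EMPA + PFD 2). Control 5w 1 shares this ratio with control 5w 2 and 3, although its level of both genes is far lower. The ratio of Col4a3 to Col4a4 was 16.6, 31.3 and 14.9 in control 9w 1 to 3 and 14.3 in EMPA 1, and 4.52 to 9.85 in the remaining 15. For Col5a1 to Col5a2 the ratio was lowest in HFpEF 1, at 0.470, and highest in control 5w 1, at 0.993. These ratios were not tested.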
